A study of Mus musculus with 16 samples.

Results

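Mouse neural stem cell cultures that carried a short hairpin against the long noncoding RNA RUS were compared between day 5 and day 7. The comparison rests on the 8 libraries labelled shRNA RUS, 4 from day 5 and 4 from day 7, out of 16 libraries in all. The members were picked out by their labels. The other 8 libraries, 4 per day, came from cultures that received a scrambled hairpin (shRNA CON) and served as controls for the same interval.

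Embryonic neural stem cells were isolated from the cortex of C57BL/6 mice at embryonic days E15 to E16 and were grown as monolayers. All 16 cultures carried a lentivirus, which was added 1 day after seeding and encoded either the scrambled hairpin or a hairpin against RUS. All were first kept with basic FGF and fetal calf serum. The switch to a differentiation medium without basic FGF (neurobasal, B27 and GlutaMAX) fell on day 5 of culture. Polyadenylated RNA was sequenced, and abundance was deposited as TPM, in which reads are scaled by transcript length and by the sum of each library. The cells came from pooled embryos of mixed sex, the knock-down was partial, and nothing in the labels separates cultures of the same group, so the p-values measure the spread between these libraries. Day of sampling and any batch that went with it cannot be told apart.

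Neural stem cells of the embryonic cortex divide under FGF and give rise to neurons, astrocytes, oligodendrocytes and ependymal cells. When the mitogen is withdrawn, progenitors leave the cell cycle and lineage genes take over. Ependymal cells carry many motile cilia, and their differentiation runs through a transcriptional switch (Gmnc and Mcidas, then Myb, Foxj1 and Trp73) that makes centrioles in large numbers. RUS is a nuclear lncRNA whose gene lies upstream of Slitrk3, a gene for a transmembrane protein of neurons.

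The labelled cell type was checked first. Sox2, which maintains neural progenitors, stood between 132 and 183 scaled TPM in the 8 knock-down libraries, and Nes, which encodes the intermediate filament nestin, between 28.5 and 47.6. Pax6 stood between 59.7 and 69.5 in the same libraries. Genes used as markers of other cell types were detected in all 8 libraries. Gfap, of astrocytes but also of radial glia and neural stem cells, stood between 729 and 2848, Foxj1, of ependymal cells, between 148 and 242, Gad1, of interneurons, between 19.4 and 54.6 and C1qa, of microglia, between 40.9 and 63.0. These single genes do not show how many cells of a type were present. Scaled TPM means TPM divided by a median-ratio factor for each library. In such bulk libraries, fewer cells of a type and less RNA per cell cannot be told apart.

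The scale between the libraries differed by day. The factors of the 4 day 5 knock-down libraries lay between 0.869 and 0.955, and those of the 4 day 7 libraries between 1.10 and 1.13. Between 25615 and 26710 genes were above 0 on day 5 and between 27389 and 28685 on day 7. Mitochondrial transcripts took 4.79 to 6.66% of all TPM on day 5 and 7.73 to 8.85% on day 7. The first principal component held 50.6% of the variance and separated the days. Day 7 library 4 stood apart from the other 3 day 7 libraries on the second component (9.6% of the variance), at -65.1 against 7.7 to 33.7. Day 5 library 4 stood apart from the other 3 day 5 libraries on the third (9.2%), at 65.2 against -25.8 to -4.2, and in the balance of short and long genes given below. Counts of the lists below without either library are given where they differ by more than 2 genes in a direction, the list of ribosomal pseudogene symbols aside.

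Between the days, 7708 of 23344 tested genes were higher on day 7 (33.0%) and 5711 were lower (24.5%), by limma on the log2(scaled TPM + 0.1) scale with a Benjamini-Hochberg adjusted p below 0.05. Counts of called list members below are to be read beside these shares of 33.0% and 24.5%. The median change of all genes was 0.14 on the log2 scale, and gene list medians below are given relative to it. Of the called genes, 3002 rose and 1466 fell by at least 2-fold, and 499 rose and 213 fell by at least 4-fold. The split depended on the scaling, as the plot of calls under 5 scalings shows. With TPM as deposited 11280 genes were higher and 3292 lower, with quantile normalization 6597 and 6370, with scaling to the 75th percentile 8727 and 4719, and with TPM summed again without mitochondrial and the 10 highest genes 11608 and 3097. The all-gene median moved between 0.02 and 0.46 over these scalings.

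**Figure D1:**
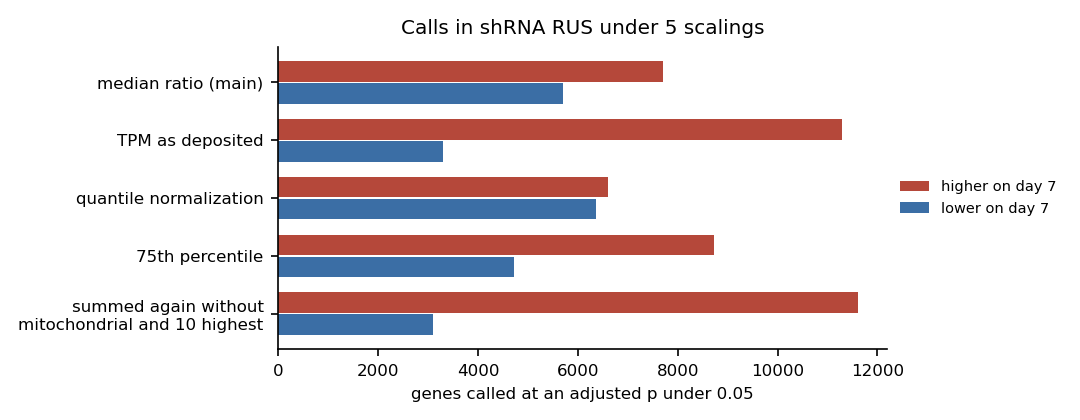
Genes called in the knock-down cultures under 5 ways of scaling the libraries. Red bars count genes higher and blue bars genes lower on day 7 at an adjusted p under 0.05. The counts are nearest to each other after quantile normalization (6597 and 6370) and furthest apart with TPM summed again (11608 and 3097).

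**Figure D2:**
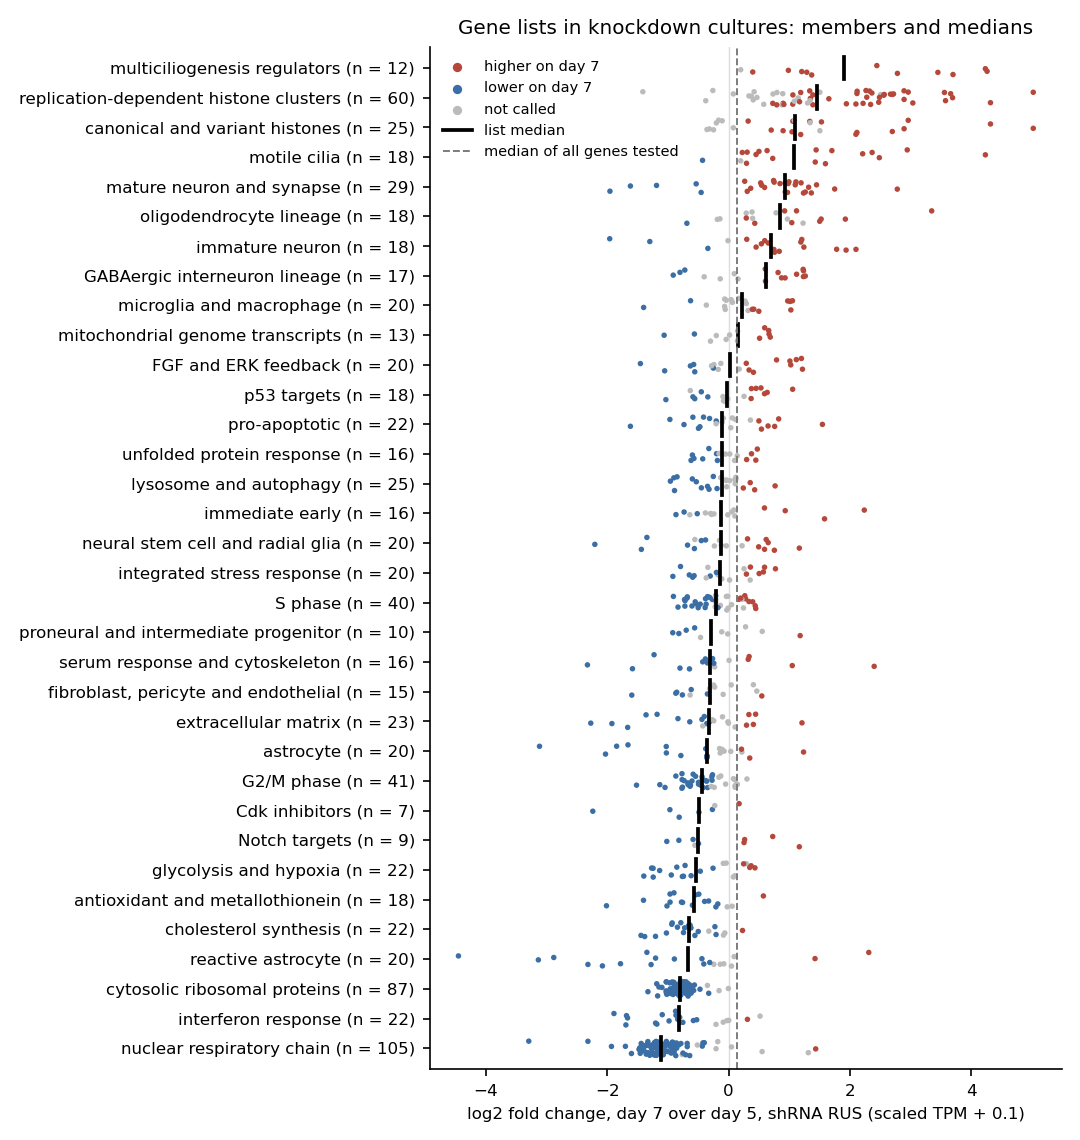
Gene lists in the knock-down cultures. Each point is a tested gene, placed by its log2 fold change between day 5 and day 7 and coloured red where it was higher, blue where it was lower and grey where it was not called, with a black line at the list median and a dashed line at the median of all genes. All tested ribosomal protein genes and nearly all respiratory chain genes lie to the left of 0 or on it, and motile cilia and mature neuron genes lie mostly to the right.

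RUS itself, annotated as Gm20754 on chr3:73066316-73594830 (GRCm38, plus strand), was near the limit of detection in all 8 libraries. On day 5 it read 0.05, 0, 0.12 and 0.32 TPM as deposited, and on day 7 it read 0.54, 0.38, 0 and 0.04. The means were 0.122 ± 0.141 and 0.240 ± 0.263 TPM (SD, n = 4 each), and the groups overlapped. The difference of 0.117 TPM gave p = 0.514 in the two-sided exact permutation test over 70 arrangements, the smallest possible p being 0.0286. A change in RUS between the days was therefore not detectable at this level. The shRNA CON libraries read 0.24, 0.11, 0.18 and 0.16 TPM on day 5 and 0.70, 0.72, 0.26 and 0.54 on day 7. The knock-down mean minus the control mean was -0.050 TPM on day 5 (p = 0.543) and -0.315 TPM on day 7 (p = 0.143) in the same exact permutation test, which was added after the values had been seen. The knock-down and control libraries overlapped on both days, so these values do not separate the hairpins by the level of their target. Both neighbouring genes rose. Slitrk3 read 3.14, 2.86, 2.79 and 2.92 scaled TPM on day 5 and 8.14, 6.86, 6.30 and 7.51 on day 7, a log2 change of 1.26 (SE 0.10, limma adjusted p = 6.16e-06). Bche, which encodes butyrylcholinesterase, read 3.23, 2.78, 2.58 and 3.35 and then 8.36, 7.39, 7.05 and 7.04, a log2 change of 1.30 (SE 0.11, adjusted p = 9.11e-06). The groups did not overlap in either gene. Their rise was larger than in the shRNA CON cultures, where the log2 changes were 0.72 for Slitrk3 and 0.33 for Bche (adjusted p of the difference 0.0275 and 0.00104).

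Genes of motile cilia and of multiciliated cell formation were among the strongest increases. Of 18 tested motile cilia genes 16 rose and 1 fell, against 33.0% and 24.5% of all genes, and the list median was 0.94 above that of all genes. Of 12 regulators of multiciliogenesis, a list added after values had been seen, 11 rose and none fell, with a median of 1.77 above that of all genes. The lists share members, among them Foxj1, so their counts are not independent. The counts were the same for the motile cilia genes without day 5 library 4.

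Mcidas, a coactivator that starts multiciliated differentiation, read 0.564, 0.558, 0.621 and 0.513 scaled TPM on day 5 and 10.7, 12.6, 15.1 and 11.5 on day 7. All day 7 libraries stood far above all day 5 libraries, at a log2 change of 4.23 (SE 0.13, limma adjusted p = 4.91e-08). Deup1, which builds the deuterosome on which extra centrioles form, went from 2.05, 2.14, 2.39 and 2.59 to 26.2, 24.9, 29.1 and 24.0 (log2 change 3.45, SE 0.10, adjusted p = 4.91e-08). Cdc20b, a partner in the same step, rose from a mean of 0.483 to 11.1 and Myb, a transcription factor of the early multiciliated state, from 1.92 to 26.0. Ccno, needed for centriole amplification, rose from 4.61 to 25.6, Trp73 from 0.437 to 3.63, Plk4, the kinase of centriole duplication, from 8.29 to 19.2, and Gmnc, the geminin relative upstream of Mcidas, from 2.53 to 6.58. Foxj1, the master regulator of motile cilia, was already high on day 5 at 184, 214, 185 and 148 and read 184, 216, 242 and 196 on day 7. These Foxj1 groups overlapped, at a log2 change of 0.20 (SE 0.12, adjusted p = 0.177).

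Structural genes of the axoneme rose to different degrees. Ccdc39, a ruler of axonemal repeats, rose from 16.1, 18.1, 14.4 and 21.4 to 78.8, 81.4, 83.7 and 77.9 scaled TPM (log2 change 2.21, SE 0.11, limma adjusted p = 5.32e-07). Tmem212 rose from a mean of 1.25 to 10.3, Hydin, a central pair protein, from 0.710 to 4.07, Spag17, of the same structure, from 0.117 to 1.12, the dynein heavy chain Dnah5 from 1.70 to 5.23 and the dynein Dnah3 from 0.157 to 3.88. Rsph1, a radial spoke protein, rose from 41.7 to 69.3. Tekt1, a filament protein inside the doublets, rose from 22.5 to 27.9, with 1 day 7 library within the day 5 range. Cfap126 was the member that fell, from 84.2 to 62.7 (log2 change -0.43, adjusted p = 0.000794). These genes were named after their values had been seen. Other members rose by less than Rsph1, among them the dyneins Dnah9 and Dnah11, at log2 changes of 0.31 and 0.64.

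Compared with control cultures, the rise was smaller. Relative to all genes, the median change of the motile cilia list was 1.42 in the shRNA CON cultures. The difference between the 2 day changes was negative in 12 of 18 motile cilia genes and positive in none, beside 14.6% and 15.2% of all 23789 genes tested. Among those 12, Rsph1 changed by 1.66 on the log2 scale in the controls against 0.73 in the knock-down (adjusted p of the difference 9.8e-06), Tmem212 by 4.26 against 2.95 (0.000296), and Tekt1 by 1.14 against 0.30 (7.66e-05). Deup1 differed in the same direction, 4.10 against 3.45 (0.000467). For Mcidas, Myb, Hydin and Ccdc39 the difference did not pass the test, at -0.45, 0.07, -0.35 and 0.02.

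The promoters of these genes were searched for the X-box, the sequence bound by RFX factors, which act with Foxj1 at cilia genes. The letters GTTNCCAT were searched on both strands in RefSeq promoter windows (GRCm38.p6) running from 250 bases before each start to 50 after it. They were found in 4 of 20 windows of motile cilia genes and in 2 of 14 windows of the regulators (14.3%), against 4.46% of all 32851 windows. The 30 bases around a match are shown for 2 structural genes and 2 regulators that rose, each 5′ to 3′ on the strand of its gene, with the motif in capitals (as its reverse complement in Dnah5 and Deup1). A match of letters is a description and not a binding site.
Dnah5, chr15:28203688-28203717, plus strand: aacggcacagcATGGAAACagtattaccct
Tekt1, chr11:72361879-72361908, minus strand: gcgtccgtccgGTTGCCATagagaccgcag
Deup1, chr9:15627909-15627938, minus strand: gccgcgtctccATGGCAACccactgggaac
Gmnc, chr16:26968400-26968429, minus strand: gccgctattaaGTTACCATcacttgttatc

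**Figure D3:**
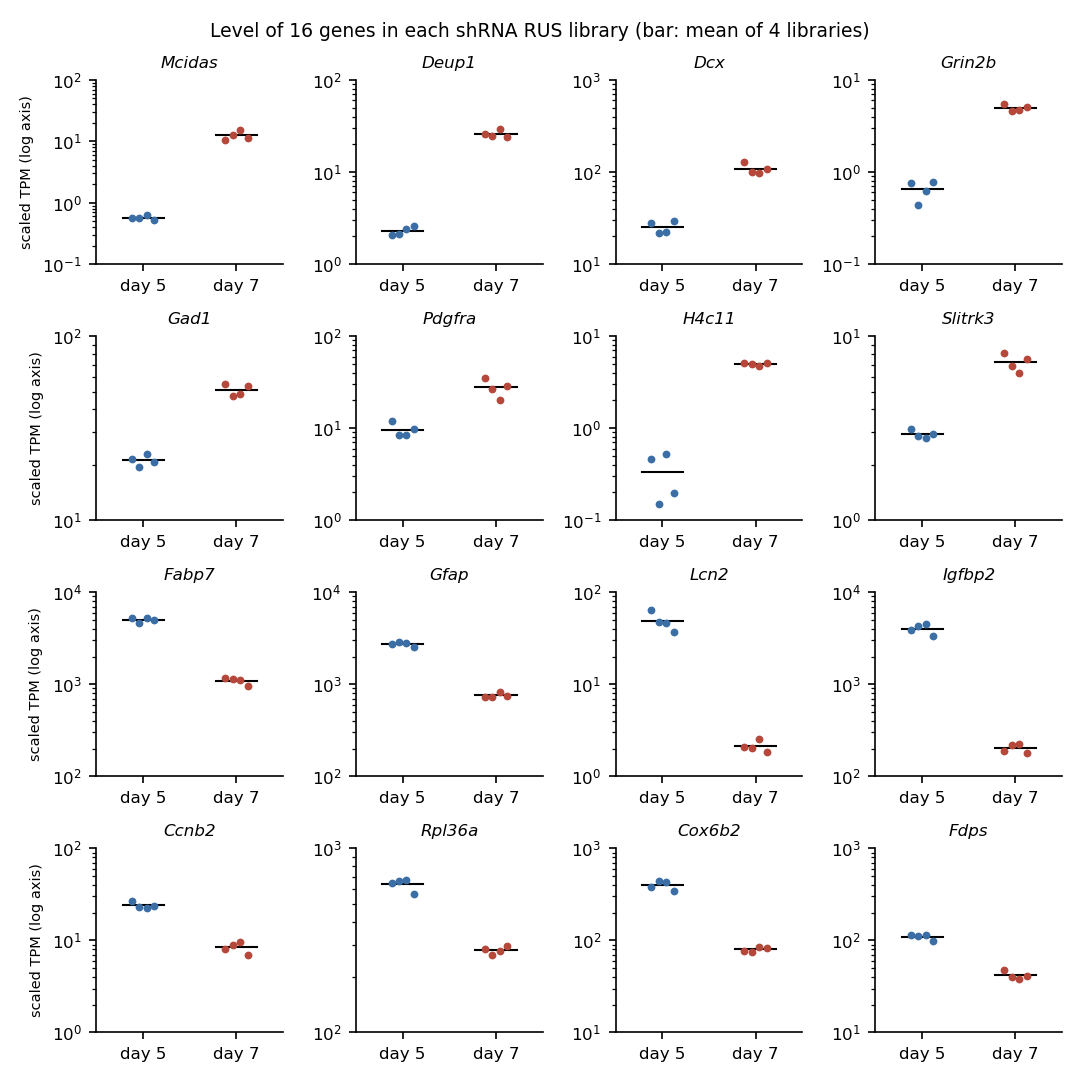
Scaled TPM of 16 genes in each of the 8 knock-down libraries, on a log axis, with a bar at the mean of the 4 libraries of a day. Mcidas, Deup1, Dcx, Grin2b, Gad1, Pdgfra, H4c11 and Slitrk3 lie higher in every day 7 library than in any day 5 library, and Fabp7, Gfap, Lcn2, Igfbp2, Ccnb2, Rpl36a, Cox6b2 and Fdps lie lower.

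Neuronal genes rose as a group. Of 29 tested genes of mature neurons and synapses 24 rose and 5 fell, and of 18 genes of immature neurons 14 rose and 3 fell. Of all genes 33.0% rose and 24.5% fell. The list medians were 0.79 and 0.56 above that of all genes. The mature list gave 22 and 5 without day 5 library 4 and 21 and 4 without day 7 library 4. Dcx, which stabilizes microtubules in migrating neurons, read 28.1, 21.5, 22.1 and 29.3 scaled TPM on day 5 and 128, 100, 97.5 and 107 on day 7 (log2 change 2.10, SE 0.12, limma adjusted p = 1.2e-06). Map1b, a microtubule protein of growing axons, rose from 32.8, 36.4, 35.7 and 54.6 to 142, 152, 151 and 155 (log2 change 1.94, SE 0.14, adjusted p = 3.42e-06). Neither gene had an overlap between days. Tubb3, the neuronal tubulin, rose from a mean of 138 to 232.

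Among synaptic genes, Grin2b, an NMDA receptor subunit, went from 0.760, 0.433, 0.621 and 0.786 scaled TPM to 5.46, 4.55, 4.71 and 5.14 (log2 change 2.78, SE 0.17, limma adjusted p = 1.68e-06). Snap25, of the release machinery, rose from 10.4, 8.72, 9.51 and 9.15 to 28.7, 23.1, 24.1 and 28.3 (log2 change 1.45, SE 0.09, adjusted p = 1.78e-06). Syt1, the calcium sensor of release, rose from a mean of 4.06 to 8.91. All 3 of these genes were higher in every day 7 library than in any day 5 library.

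Some neuronal genes moved the other way. Stmn2, a microtubule regulator of growth cones, fell from 238, 211, 237 and 205 scaled TPM to 62.7, 56.5, 54.2 and 55.3 (log2 change -1.96, SE 0.07, limma adjusted p = 1.08e-07). Gap43, another growth cone gene, fell from a mean of 163 to 66.4, and Stmn1 from 839 to 662. The fall of Stmn1 held in the main scaling but turned to a rise of 0.28 on the log2 scale after quantile normalization and to 0.02 with TPM summed again. Thy1 fell from 234 to 60.5, Camk2a, a kinase of excitatory synapses, from 28.3 to 19.5, and Nefm, a neurofilament, from 1.44 to 1.03. Slc17a7 and Nrgn, both genes of mature excitatory neurons, fell from 0.344 to 0.0957 and from 0.678 to 0.141. Nefm, Slc17a7 and Nrgn stood below 1.6 in every library.

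The neuronal rise was larger in the knock-down than in the controls for many members. The median of the mature list was 0.43 above all genes in the shRNA CON cultures, and the difference of the day changes was positive in 14 of 29 genes and negative in none, beside 15.2% and 14.6% of all genes. It was positive in 10 and negative in 2 of 18 immature neuron genes. Map1b rose by 1.94 on the log2 scale against 0.86 in the controls (adjusted p of the difference 0.000192), Grin2b by 2.79 against 1.90 (0.00723), Snap25 by 1.45 against 0.80 (0.000672) and Dcx by 2.10 against 1.48 (0.0175). Stmn2 fell by 1.96 against 1.22 (1.39e-05). For Tubb3 and Syt1 the differences of 0.14 and 0.23 did not pass the test. Neuronal genes tend to be long, and the plot of changes by gene length is described below. Relative to genes of the same length class, the median change in the knock-down was 0.67 for the mature and 0.73 for the immature list. The median difference from the controls, taken in the same way, was 0.38 and 0.32. These values rest on the 23 and 18 protein-coding members at 1 TPM or more.

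Of 17 genes of the GABAergic interneuron lineage 10 rose and 3 fell, with a median 0.47 above all genes. Gad1, which makes GABA and also counts in the mature list, rose from 21.6, 19.4, 22.8 and 20.8 scaled TPM to 54.6, 47.3, 48.4 and 53.7 (log2 change 1.26, SE 0.07, limma adjusted p = 1.02e-06). Slc32a1, the vesicular GABA transporter, rose from a mean of 3.98 to 9.39 and Sp8, a factor of olfactory bulb interneurons, from 4.41 to 10.5. Dlx2, which directs the lineage in the ventral forebrain, read 31.3 and 34.6 on average and did not pass the test (adjusted p = 0.299). The difference from the controls was positive in 4 of 18 genes of the list and negative in none, beside 15.2% and 14.6% of all genes.

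Of 20 genes of neural stem cells and radial glia 7 rose, 7 fell and 6 did not pass the test, near the 33.0% and 24.5% of all genes, and 10 rose and 5 fell with TPM as deposited. Fabp7, a fatty acid carrier of radial glia, fell from 5235, 4605, 5260 and 4964 scaled TPM to 1159, 1132, 1106 and 962 (log2 change -2.20, SE 0.07, limma adjusted p = 8.99e-08). Vim, the intermediate filament vimentin, fell from a mean of 13140 to 5149 and Hopx, a marker of outer radial glia, from 54.8 to 20.1. Nes rose from 30.6 to 43.3 (adjusted p = 0.000701). Sox2 at 162 and 157 and Pax6 at 67.7 and 62.3 did not pass the test. Hes1, a Notch effector that holds progenitors undifferentiated, rose from 6.30 to 14.2. Emx2, of the dorsal cortex, fell from 32.8 to 23.9. Of 10 tested proneural and intermediate progenitor genes 1 rose and 4 fell, or 3 and 3 with TPM as deposited. Elavl4 rose from 5.85 to 13.4, Gadd45g fell from 163 to 83.3 and Eomes, of intermediate progenitors, from 0.547 to 0.269. Neurog2, a proneural factor, averaged 0.256 and 0.344 and did not pass the test.

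Astrocyte genes fell more often than they rose. Of 20 astrocyte genes 11 fell and 3 rose, and of 20 genes of reactive astrocytes 13 fell and 2 rose. Of all genes 24.5% fell and 33.0% rose. The list medians were -0.49 and -0.80 relative to all genes. The astrocyte counts were 14 and 4 without day 5 library 4, but 6 fell and 6 rose with TPM as deposited and 6 fell and 10 rose after quantile normalization, where the median turned to 0.24. Gfap, an intermediate filament of astrocytes and neural stem cells, read 2708, 2848, 2808 and 2510 scaled TPM on day 5 and 729, 729, 834 and 737 on day 7 (log2 change -1.84, SE 0.06, limma adjusted p = 1.03e-07). Aldh1l1, a folate enzyme of astrocytes, fell from 263, 314, 316 and 296 to 71.3, 70.5, 79.0 and 70.1 (log2 change -2.03, SE 0.07, adjusted p = 1e-07). Gjb6, a gap junction protein, fell from a mean of 3.31 to 0.292. Aqp4, the water channel of astrocyte endfeet, read 342 and 308 on average and did not pass the test, and S100b rose from 4.53 to 10.8.

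Lcn2, an acute response gene of reactive astrocytes, fell from 64.6, 48.0, 46.4 and 37.1 scaled TPM to 2.06, 2.04, 2.53 and 1.84, a log2 change of -4.45 (SE 0.16, limma adjusted p = 1.14e-07). Serpina3n, a protease inhibitor, fell from a mean of 1267 to 300.5, Timp1, an inhibitor of metalloproteinases, from 66.7 to 7.50, Aspg from 8.21 to 1.03 and the small heat shock protein Hspb1 from 59.6 to 11.7. The 2 reactive genes that rose were Steap4, a metalloreductase, from 10.6 to 28.5, and Fbln5, an elastic fibre protein, from 15.6 to 77.6. Steap4 changed by -0.18 on the log2 scale in the controls against 1.43 in the knock-down (adjusted p of the difference 5.1e-07). The difference from the controls was positive in 9 of the 20 reactive genes and negative in 5, beside 15.2% and 14.6% of all genes.

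Oligodendrocyte lineage genes rose unevenly between libraries. Of 18 tested genes 9 rose and 1 fell, with a median 0.72 above all genes, but the count of genes that rose was 5 without day 5 library 2, day 7 library 1 or day 7 library 4, and 6 without day 5 library 4 or day 7 library 2. It was also 5 after quantile normalization. Pdgfra, the receptor of oligodendrocyte precursors, rose from 11.97, 8.34, 8.44 and 9.73 scaled TPM to 35.4, 26.7, 20.1 and 28.5 (limma adjusted p = 5.79e-05). Gpr17, a receptor of cells about to mature, rose from 0.0691, 0.114, 0.0451 and 0.0838 to 5.30, 1.66, 0.362 and 2.26 (log2 change 3.35, SE 0.62, adjusted p = 0.00121). In these genes the day 7 libraries did not overlap with day 5 but spread widely among themselves, with library 1 highest and library 3 lowest. Mbp, a protein of compact myelin, read 17.5, 2.08, 1.30 and 5.52 on day 7 against 2.30 to 5.45 on day 5 and did not pass the test. Bcas1 and Sox10 rose from 0.951 to 4.53 and from 1.31 to 3, and in both the groups overlapped. In the controls the list median was 1.06 above all genes, and 2 genes of 19 had a positive and 3 a negative difference, shares near the 15.2% and 14.6% of all genes.

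Microglia genes changed less upwards in the knock-down than in the controls. In the knock-down 7 of 20 rose, 2 fell and 11 did not pass the test, beside 33.0% and 24.5% of all genes, with a median 0.08 above all genes, and in the shRNA CON cultures the median was 1.06 above all genes. The difference was negative in 17 of 20 genes and positive in none, beside 14.6% of all genes. Cx3cr1, the fractalkine receptor, rose from 5.64, 5.47, 6.42 and 5.94 scaled TPM to 12.4, 12.4, 11.8 and 10.04 (log2 change 0.97, SE 0.09, limma adjusted p = 1.72e-05), against 1.69 in the controls (adjusted p of the difference 0.000686). C1qa, a complement gene, averaged 48.7 and 58.7 and did not pass the test (adjusted p = 0.0554), and its change of 0.27 stood against 1.31 in the controls (adjusted p of the difference 3.98e-05). Trem2 and Laptm5 rose from 8.16 to 16.5 and from 10.98 to 22.4, Cd14, a receptor for bacterial lipids, fell from 11.9 to 4.42, and Aif1 averaged 7.19 and 5.45 without passing the test. The summed level of the list was 406 to 522 on day 5 and 474 to 582 on day 7, and with TPM as deposited 15 of the 20 genes rose and 1 fell.

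Of 15 tested fibroblast, pericyte and endothelial genes 1 rose and 6 fell (3 and 3 with TPM as deposited), beside 33.0% and 24.5% of all genes. Their summed level was 495 to 550 scaled TPM on day 5 and 392 to 491 on day 7. Col1a2, a fibrillar collagen chain, fell from a mean of 11.1 to 3.60 and its partner Col1a1 from 3.20 to 1.66. Pdgfrb, a receptor of pericytes, was the gene that rose, from 17.6 to 25.6. Among 23 extracellular matrix genes 11 fell and 5 rose, or 6 and 7 with TPM as deposited, beside the same 24.5% and 33.0% of all genes. Lama4, a vascular laminin chain, fell from 3.57 to 0.654 and Col6a1 from 14.3 to 3.70, whereas Thbs1, a matricellular protein, rose from 76.5 to 176. Fn1, fibronectin, averaged 51.4 and 47.6 and did not pass the test. No member of the astrocyte, microglia, oligodendrocyte or fibroblast lists was at 0 in all 8 libraries, and the part of these cells in the other results was not tested.

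Genes of mitosis fell in the knock-down. Of 41 genes of the G2/M phase 28 fell and none rose, with a median of -0.57 relative to all genes, and of 40 S phase genes 20 fell and 8 rose, with a median of -0.35. Without day 5 library 4 the counts were 27 and 1 and 22 and 9, and without day 5 library 2 the S phase counts were 17 and 5, but TPM as deposited gave 16 lower and 7 higher for G2/M and 10 lower and 15 higher for S phase. Ccnb2, a mitotic cyclin, read 27.0, 23.1, 22.7 and 23.4 scaled TPM on day 5 and 8.04, 8.96, 9.69 and 6.89 on day 7 (log2 change -1.52, SE 0.11, limma adjusted p = 3.56e-06). Nuf2, of the kinetochore, fell from 26.1, 22.8, 22.4 and 27.4 to 11.3, 11.8, 11.6 and 10.04 (log2 change -1.13, SE 0.09, adjusted p = 4.91e-06). Every day 7 library lay below every day 5 library in both genes. Cdk1, the mitotic kinase, fell from a mean of 65.8 to 41.6, Ube2c, which feeds the anaphase-promoting complex, from 43.9 to 26.3, Cenpa, the centromeric histone, from 50.0 to 24.1 and Top2a from 89.4 to 66.0. Mki67, a proliferation marker, averaged 18.04 and 19.3 and did not pass the test (adjusted p = 0.442).

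In S phase, E2f1, a factor of the G1 to S transition, fell from a mean of 9.61 to 5.07 scaled TPM, Ccne1, a cyclin of the same step, from 9.40 to 5.22, Rrm2, which makes deoxynucleotides, from 80.5 to 48.8 and Pcna, the sliding clamp, from 147 to 106. Mcm2, of the replicative helicase, averaged 19.9 and 20.6 and did not pass the test. The mitotic fall was larger than in the controls. The G2/M list had a median of -0.14 relative to all genes in the shRNA CON cultures, and the difference was negative in 25 of 41 genes and positive in none, beside 14.6% of all genes. Ccnb2 fell by 1.52 on the log2 scale against 0.47 (adjusted p of the difference 3.42e-05), Nuf2 by 1.13 against 0.41 (0.000207), and Cdk1 changed by -0.67 against 0.15 (7.79e-05). In S phase 12 of 40 differences were negative and 1 was positive.

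Of 7 inhibitors of cyclin-dependent kinases 5 fell and 1 rose, or 3 and 1 with TPM as deposited, beside 24.5% and 33.0% of all genes. Cdkn1c, which encodes p57, fell from 14.2, 16.6, 12.7 and 8.85 scaled TPM to 2.75, 3.16, 2.68 and 2.04 (log2 change -2.24, SE 0.20, limma adjusted p = 1.12e-05), against -0.96 in the controls (adjusted p of the difference 0.00309). Cdkn2d, which encodes p19, fell from a mean of 56.4 to 28.7. Cdkn1a, which encodes p21, read 320, 374, 345 and 310 on day 5 and 267, 272, 284 and 297 on day 7, a log2 change of -0.27 (adjusted p = 0.00724). Its direction turned with the scaling, to 0.06 with TPM as deposited, 0.21 after quantile normalization and 0.09 with TPM summed again.

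The cell cycle homology region (CHR), through which the DREAM complex acts on mitotic genes, was searched as TTTGAA on both strands in the same windows. It was found in 27 of 38 windows of G2/M genes (71.1%), against 17.9% of all windows. The stretches are shown for 3 genes that fell, with the motif in capitals (as its reverse complement in Ube2c).
Ccnb2, chr9:70421704-70421733, minus strand: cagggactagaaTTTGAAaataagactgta
Ube2c, chr2:164769888-164769917, plus strand: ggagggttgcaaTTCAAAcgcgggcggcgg
Cdk1, chr10:69352910-69352939, minus strand: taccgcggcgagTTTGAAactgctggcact

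Many histone genes rose. Of 25 tested canonical and variant histone genes 15 rose and none fell (16 and 3 without day 5 library 4), with a median 0.95 above all genes. A list of 60 tested genes from the replication-dependent clusters, added after values had been seen, had 40 that rose and none that fell. It shares members with the first list, so the counts are not independent. H4c11, an H4 gene, went from 0.461, 0.148, 0.519 and 0.199 scaled TPM to 5.09, 4.96, 4.76 and 5.06 (log2 change 3.66, SE 0.29, limma adjusted p = 5.67e-06). H2ac7 rose from a mean of 0.787 to 10.3, H2bc11 from 0.451 to 5.49 and the linker histone H1f5 from 0.502 to 2.43. H3f3b, whose H3.3 protein is laid down outside replication and whose messenger is polyadenylated, rose from 542 to 879, and H3f3a averaged 1275 and 1182 without passing the test. Most messengers of the clusters normally end in a stem loop instead of a poly(A) tail. The list medians were 0.81 and 1.51 above all genes in the controls, and the difference was positive in 2 and negative in 1 of 25 genes of the first list and positive in 4 and negative in 3 of 61 of the second, beside 15.2% and 14.6% of all genes.

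Ribosomal protein genes fell almost throughout. Of 87 tested genes of the cytosolic ribosome 84 fell and none rose, with a median of -0.94 relative to all genes. Rps24 read 1686, 1563, 1729 and 1441 scaled TPM on day 5 and 765, 721, 690 and 675 on day 7 (log2 change -1.17, SE 0.07, limma adjusted p = 1.39e-06). Rpl36a fell from a mean of 639 to 281 and Rpl31 from 1477 to 817. The smaller falls were sensitive to the scaling, since Rpl10, which fell from 902 to 717, turned to a rise of 0.30 on the log2 scale after quantile normalization and of 0.03 with TPM summed again, and Rpl7, which fell from 1635 to 1070, turned to 0.06 after quantile normalization. After quantile normalization 49 of the list fell and 3 rose. Rpl39l, a copy used mainly in testis, was near 0.1 on both days. In the controls the list median was -0.33, and the difference was negative in 80 of 87 genes and positive in none, beside 14.6% and 15.2% of all genes. Ribosomal protein genes have many near-identical pseudogene copies, and 52 of 157 tested pseudogene symbols fell and 9 rose (34 and 15 with TPM as deposited), so the division of reads between gene and copies is uncertain.

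Nuclear genes of the respiratory chain fell likewise. Of 105 tested genes 96 fell and 1 rose, beside 24.5% and 33.0% of all genes, with a median of -1.25 relative to all genes. Cox5b, of complex IV, went from 900, 1039, 967 and 726 scaled TPM to 356, 368, 411 and 368 (log2 change -1.26, SE 0.10, limma adjusted p = 7.85e-06). Cox6a1 fell from a mean of 975 to 349, Ndufb3, of complex I, from 89.7 to 44.5, Atp5k, of the ATP synthase, from 549 to 208 and Atp5g2 from 512 to 240. The isoform gene Cox6b2 fell from 379, 444, 432 and 346 to 77.3, 75, 85.3 and 81.9 (log2 change -2.32, adjusted p = 1.14e-07), and Cox4i2, an isoform of another subunit, fell from a mean of 2.90 to 0.213. Cox8b was the gene that rose, from 0.338 to 1.11. Cycs, the electron carrier cytochrome c, fell from 105 to 53.8. The list median was -0.57 in the controls. The difference was negative in 83 of 106 genes and positive in none, beside 14.6% and 15.2% of all genes. The ribosomal and respiratory differences are given relative to gene length below. Cox6b2 fell by 2.32 on the log2 scale against 0.85 in the controls (adjusted p of the difference 2.06e-07).

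Of the 13 protein-coding transcripts of the mitochondrial genome 5 rose and 2 fell, shares near the 33.0% and 24.5% of all genes, with a median 0.01 from that of all genes. The counts depended on the scaling, since 9 rose and 1 fell with TPM as deposited, after quantile normalization and with TPM summed again, and 3 rose and 1 fell without day 5 library 2 or 3. The complex I genes mt-Nd2, mt-Nd4 and mt-Nd5 rose, from means of 2453 to 3702, 5985 to 8517 and 3229 to 5153 scaled TPM. By contrast, mt-Co2 fell from 582 to 282. For mt-Nd1 at 4236 and 4687 and mt-Co1 at 20930 and 20260, the difference did not pass the test.

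The binding letters of NRF1, a factor of nuclear respiratory genes, were searched as GCGCATGCG on both strands, a motif that overlaps its own reverse complement. They were found in 10 of 80 windows of the respiratory genes (12.5%) and in 1.75% of all windows. The stretches are shown for 3 genes that fell, with the reverse complement of the motif in capitals.
Cox6a1, chr5:115349100-115349129, minus strand: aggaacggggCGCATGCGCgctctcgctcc
Atp5k, chr5:108434429-108434458, minus strand: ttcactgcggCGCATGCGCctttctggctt
Atp5g2, chr15:102671069-102671098, minus strand: gctccggccgCGCATGCGCagagccttccc

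**Figure D4:**
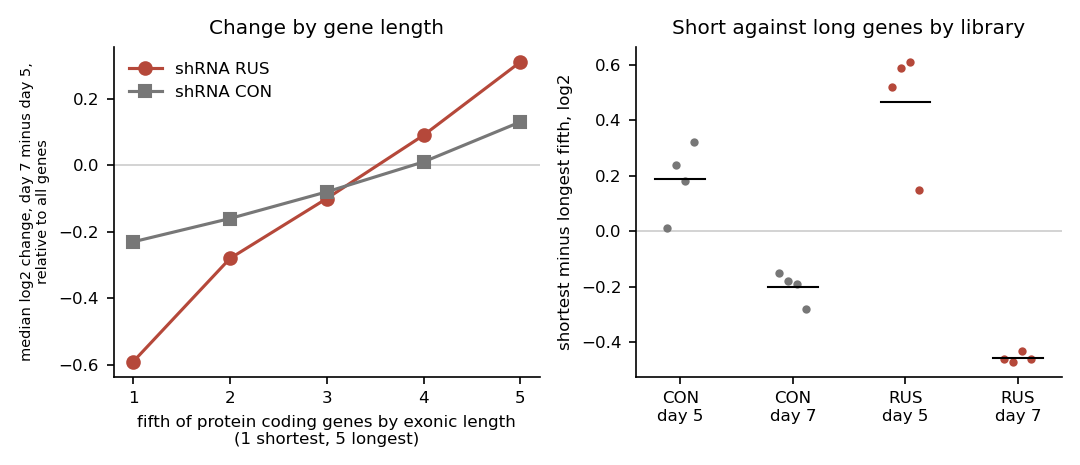
Change by gene length. The left panel gives, for protein-coding genes at 1 TPM or more in 5 classes of exonic length, the median log2 change relative to all genes in knock-down and control cultures. The right panel gives, for each library, the median of the shortest minus that of the longest class, with a bar at the group mean. Each gene is taken there relative to its mean log2 level over the 16 libraries. In the knock-down the median runs from -0.59 in the shortest class to 0.31 in the longest, and in the controls from -0.23 to 0.13.

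Ribosomal and respiratory genes are short, and the change between the days went with gene length. Protein-coding genes at 1 TPM or more were split by exonic length into 5 equal classes of 165 to 2542, 2543 to 3843, 3844 to 5368, 5370 to 7811 and 7815 to 41324 bp. The median change relative to all genes was -0.59, -0.28, -0.10, 0.09 and 0.31 in the knock-down, and -0.23, -0.16, -0.08, 0.01 and 0.13 in the controls. In the shortest class 14.2% of genes rose and 61.9% fell, and in the longest 65.4% rose and 12.4% fell. For single libraries, each gene was taken relative to its mean log2 level over all 16 libraries. On that relative scale, the median of the shortest class minus that of the longest was 0.52, 0.59, 0.61 and 0.15 in the day 5 knock-down libraries. It was -0.46, -0.47, -0.43 and -0.46 on day 7. Day 5 library 4 lay apart from its group. These values compare libraries and are not differences in level between short and long genes. Relative to genes of the same length class, the medians were -0.43 for the ribosomal, -0.76 for the respiratory, -0.48 for the G2/M and 1.15 for the motile cilia list. These rest on the 80, 86, 41 and 17 protein-coding members at 1 TPM or more. The difference from the controls went with length too, with medians of -0.35, -0.11, 0.01, 0.11 and 0.22 from the shortest class to the longest. Relative to genes of the same class, its median was -0.30 for the ribosomal and -0.35 for the respiratory list, over the same 80 and 86 members. Relative to all genes it was -0.58 and -0.62, over 87 and 106 tested members. The members and the reference both differ between these values. The part of length or RNA quality in these results was not tested.

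Cholesterol synthesis genes fell, 18 of 22 against 1 that rose, with a median of -0.79 relative to all genes. Fdps, which makes farnesyl diphosphate, fell from 114, 112, 114 and 97.6 scaled TPM to 48.0, 40.0, 38.4 and 41.3 (log2 change -1.38, SE 0.08, limma adjusted p = 1.21e-06). Mvd, earlier in the pathway, fell from a mean of 27.7 to 10.1 and Hmgcs1 from 138 to 97.5. Sc5d, a late enzyme, was the gene that rose, from 39.1 to 45.8. The list median was -0.76 in the controls, where 1 difference of 22 was positive and 3 were negative, beside 15.2% and 14.6% of all genes. The sterol response element, searched as TCACNCCAC on both strands, was found in 1 of 17 windows (5.88%) and in 1.24% of all windows. That window belongs to Hmgcs1, with the motif in capitals.
Hmgcs1, chr13:119690204-119690233, plus strand: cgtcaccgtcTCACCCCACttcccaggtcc

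Glycolysis and hypoxia genes fell in 13 of 22 cases and rose in 4, beside 24.5% and 33.0% of all genes. The list median was -0.68 relative to all genes. Gapdh read 1948, 1920, 1913 and 1682 scaled TPM on day 5 and 706, 695, 719 and 710 on day 7 (log2 change -1.40, SE 0.06, limma adjusted p = 2.36e-07), against -0.75 in the controls (adjusted p of the difference 1.2e-05). Ldha, lactate dehydrogenase, fell from a mean of 378 to 159 and the hexokinase Hk2 from 10.5 to 4.24. Slc2a1, the glucose transporter, rose from 51.3 to 69.2, and Vegfa averaged 23.3 and 21.9 without passing the test. Of 18 antioxidant and metallothionein genes 15 fell and 1 rose, beside the same shares of all genes, with a median of -0.71 relative to them. However, 9 fell and 3 rose with TPM as deposited, 10 and 2 after quantile normalization and 8 and 4 with TPM summed again. Nqo1, a quinone reductase, fell from 31.7, 29.8, 25.9 and 28.7 to 7.08, 6.98, 7.47 and 6.89 (log2 change -2.01, SE 0.07, adjusted p = 1.19e-07), and the glutathione peroxidase Gpx1 fell from a mean of 998 to 373. Slc7a11, the cystine transporter, rose from 1.58 to 2.34. Hmox1, heme oxygenase, averaged 295 and 290, and its change of -0.02 stood against -0.55 in the controls (adjusted p of the difference 2.98e-05).

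Of 22 interferon response genes 16 fell and 1 rose, with a median of -0.96 relative to all genes. H2-K1, a class I antigen-presenting molecule, fell from 393, 348, 384 and 347 scaled TPM to 109, 110, 120 and 116 (log2 change -1.69, SE 0.06, limma adjusted p = 1e-07). Psmb8, of the immunoproteasome, fell from a mean of 48.4 to 13.1, Bst2, which tethers viruses, from 99.2 to 31.2, Ifit3 from 64.4 to 30.1 and Isg15 from 24.8 to 17.0. Cxcl10, a chemokine, read 42.6, 13.6, 15.5 and 12.7 on day 5, with library 1 far above the others, and 7.66, 10.2, 10.02 and 5.08 on day 7. Stat2, a transducer of the signal, was the gene that rose, from 31.6 to 38.98, and Ifit1 averaged 9.63 and 9.20 without passing the test. The list median was -0.50 in the controls, and 7 of 22 differences were negative and 2 positive, beside 14.6% and 15.2% of all genes. The interferon response element, searched as GAAANNGAA on both strands, was found in 12 of 22 windows (54.5%) and in 8.56% of all windows. The stretches are shown for 3 genes that fell, with the motif in capitals (as its reverse complement in Ifit3).
Bst2, chr8:71537577-71537606, minus strand: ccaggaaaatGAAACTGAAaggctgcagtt
Cxcl10, chr5:92349083-92349112, minus strand: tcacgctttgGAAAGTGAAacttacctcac
Ifit3, chr19:34583417-34583446, plus strand: tactttcctcTTCCCTTTCacaaacactga

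Of 20 genes of FGF and ERK feedback 9 rose and 6 fell, beside 33.0% and 24.5% of all genes. Ccnd1, the G1 cyclin, fell from 140, 132, 128 and 134 scaled TPM to 45.0, 46.9, 52.3 and 50.8 (log2 change -1.45, SE 0.06, limma adjusted p = 2.36e-07). Dusp6, an ERK phosphatase, fell from a mean of 35.5 to 17.1 and Spry2, a feedback inhibitor, from 55.3 to 37.2, whereas Etv1, an ETS factor, rose from 13.6 to 29.3. The difference from the controls was positive in 12 of 20 genes and negative in 1, beside 15.2% and 14.6% of all genes. Of those named here, Spry2 fell by less in the knock-down, -0.57 against -1.04 on the log2 scale (adjusted p of the difference 0.00106), and Dusp6 by more, -1.05 against -0.42 (0.00025). Of 16 immediate early genes 4 rose and 3 fell, shares below those of all genes, or 4 and 6 without day 5 library 4 and 7 and 2 with TPM summed again. Fos fell from 70.2 to 38.4, and Nr4a3 and Egr3 rose from 0.602 to 3.23 and from 0.514 to 1.71. Arc averaged 1.42 and 1.52 and did not pass the test. Of 16 serum response and cytoskeleton genes 10 fell and 4 rose, or 5 and 5 with TPM as deposited. Among them were Ccn2, a target of serum signalling, which rose from 41.1 to 218, and Srf, which rose from 25.6 to 32.1. Tpm2, a tropomyosin, fell from 9.37 to 1.82. Of 9 Notch targets 4 rose and 4 fell. Nrarp fell from 11.1 to 5.26, and Hes5 averaged 6.03 and 4.01 without passing the test.

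The stress and death lists are set beside all genes, of which 33.0% rose and 24.5% fell. Of 18 p53 targets 7 rose and 5 fell, or 11 and 3 with TPM as deposited. Their differences from the controls were positive in 6 and negative in none, beside 15.2% and 14.6% of all genes. Mdm2, the ubiquitin ligase of p53, rose from 59.5, 55.6, 57.6 and 66.3 scaled TPM to 84.2, 84.9, 85.3 and 91.2 (log2 change 0.53, SE 0.06, limma adjusted p = 6.8e-05). Trp53inp1 rose from a mean of 39.6 to 81.4, against a log2 change of 0.38 in the controls (adjusted p of the difference 0.00664), and Phlda3 and Ccng1 fell from 315 to 154 and from 367 to 244. Of 22 pro-apoptotic genes 6 rose and 9 fell, but 11 rose and 4 fell with TPM as deposited. Hrk, a BH3-only protein of neurons, rose from 0.679 to 2.19, Bax fell from 288 to 172, and Bbc3 averaged 28.3 and 34.6 without passing the test. Of 20 genes of the integrated stress response 6 rose and 7 fell, or 9 and 3 with TPM as deposited. Atf4, its transcription factor, rose from 80.7 to 103, the amino acid transporter Slc7a5 rose from 25.1 to 43.0, Psat1, of serine synthesis, fell from 309 to 197 and Cebpb from 10.8 to 5.57. Of 16 genes of the unfolded protein response 4 rose and 7 fell, and with TPM as deposited 8 rose and 3 fell. Creld2 fell from 52.0 to 33.7, and the chaperone Hspa5 averaged 306 and 275 without passing the test.

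Of 25 lysosome and autophagy genes 11 fell and 4 rose, beside 24.5% and 33.0% of all genes. Ctsd, a cathepsin, fell from a mean of 2198 to 1218 scaled TPM and Hexa, a hexosaminidase, from 155 to 79.9. Ulk1, a kinase that starts autophagy, rose from 31.7 to 53.9 and Lamp1 from 1078 to 1381, whereas Ctsb averaged 1847 and 1707 without passing the test. The list turned with the scaling, since 14 rose and 5 fell with TPM as deposited. The X-linked Xist and the Y-linked Ddx3y were both detected on both days. Xist averaged 65.9 and 131 and Ddx3y 5.00 and 9.04, and 4 of 5 genes of that list rose. Id3, an inhibitor of basic helix-loop-helix factors, fell from 364, 407, 398 and 257 to 113, 118, 113 and 102 (log2 change -1.66, limma adjusted p = 6.82e-06), against -0.19 in the controls (adjusted p of the difference 3.16e-05).

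Ranking by the size of the change alone brought up genes listed at 0. Of the 12 genes with the largest increases 11 had at least 1 day 5 library at 0, and 7 had all 4. Of the 12 with the largest decreases 10 had a day 7 library at 0, and 4 had all 4. For genes listed at 0 in a whole group no fold is given. Gm28635 read 7.86, 9.75, 10.7 and 11.8 scaled TPM on day 7 and was listed at 0 in all 4 day 5 libraries, and Gm13568 read 6.10, 16.1, 16.7 and 7.53 on day 5 and was listed at 0 in all 4 day 7 libraries. Gm10222, a pseudogene, read 0, 33.8, 0 and 122 on day 5 and 1555, 1220, 852 and 4385 on day 7.

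Protein-coding genes above 0 in all 8 libraries were then ranked, a choice made after values had been seen. Rnase1, a secreted ribonuclease, went from 0.921, 1.24, 0.610 and 0.964 scaled TPM to 32.7, 26.2, 31.1 and 33.1, at a log2 change of 4.93 (SE 0.18, limma adjusted p = 1.14e-07) against 1.79 in the controls (adjusted p of the difference 5.32e-06). Glycam1, a mucin-like glycoprotein, rose from 42.3, 38.8, 50.0 and 31.1 to 867, 806, 741 and 746 (log2 change 4.30, SE 0.13, adjusted p = 4.91e-08), against 3.16 in the controls. Slc17a8, a vesicular glutamate transporter, rose from a mean of 0.150 to 4.38 and Ripply1 from 1.78 to 25.2. With Cdc20b, Mcidas, Dnah3, Myb and Deup1, 5 of the 12 largest increases were described above with the cilia genes.

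Igfbp2, a binding protein of insulin-like growth factors, fell from 3895, 4322, 4524 and 3320 scaled TPM to 188, 218, 222 and 180, at a log2 change of -4.31 (SE 0.11, limma adjusted p = 3.8e-08) against -2.57 in the controls (adjusted p of the difference 6.88e-07). Cd34, a sialomucin, fell from 14.6, 12.8, 14.1 and 13.4 to 1.01, 1.06, 1.17 and 0.716 (log2 change -3.68, SE 0.14, adjusted p = 1.45e-07), against -1.59 in the controls (9.39e-07). Both genes had day 7 libraries far below every day 5 library. Dhrs1, a dehydrogenase, fell from a mean of 4391 to 459, Tgm1, a transglutaminase, from 18.8 to 1.14 and Vdr, the vitamin D receptor, from 6.27 to 0.427. The change of Vdr was -3.61 on the log2 scale against -3.59 in the controls, a difference that did not pass the test (adjusted p = 0.949).

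In deposited TPM, the scale on which each library sums to a fixed total, the largest losses were of Gm29216, a mitochondrial pseudogene symbol, at -8198 TPM on average, of Prdx6, a peroxiredoxin, at -6300, of Vim at -5960, of the ferritin chain Fth1 at -4514 and of CT010467.1, annotated as ribosomal RNA, at -3551. The largest gains were of mt-Nd4 (4180 TPM), mt-Co1 (3931), mt-Atp8 (3876), mt-Nd4l (3457) and Gm10925 (3056). By gene class, 5501 of 15417 protein-coding genes rose and 4803 fell, while 956 of 2970 long noncoding RNAs rose and 357 fell. Of 2648 pseudogenes 507 rose (19.1%) and 401 fell (15.1%), and of 756 small noncoding RNAs 73 rose (9.66%) and 21 fell (2.78%). Of 922 TEC models, which are provisional gene models, 468 rose (50.8%) and 27 fell (2.93%).

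**Figure D5:**
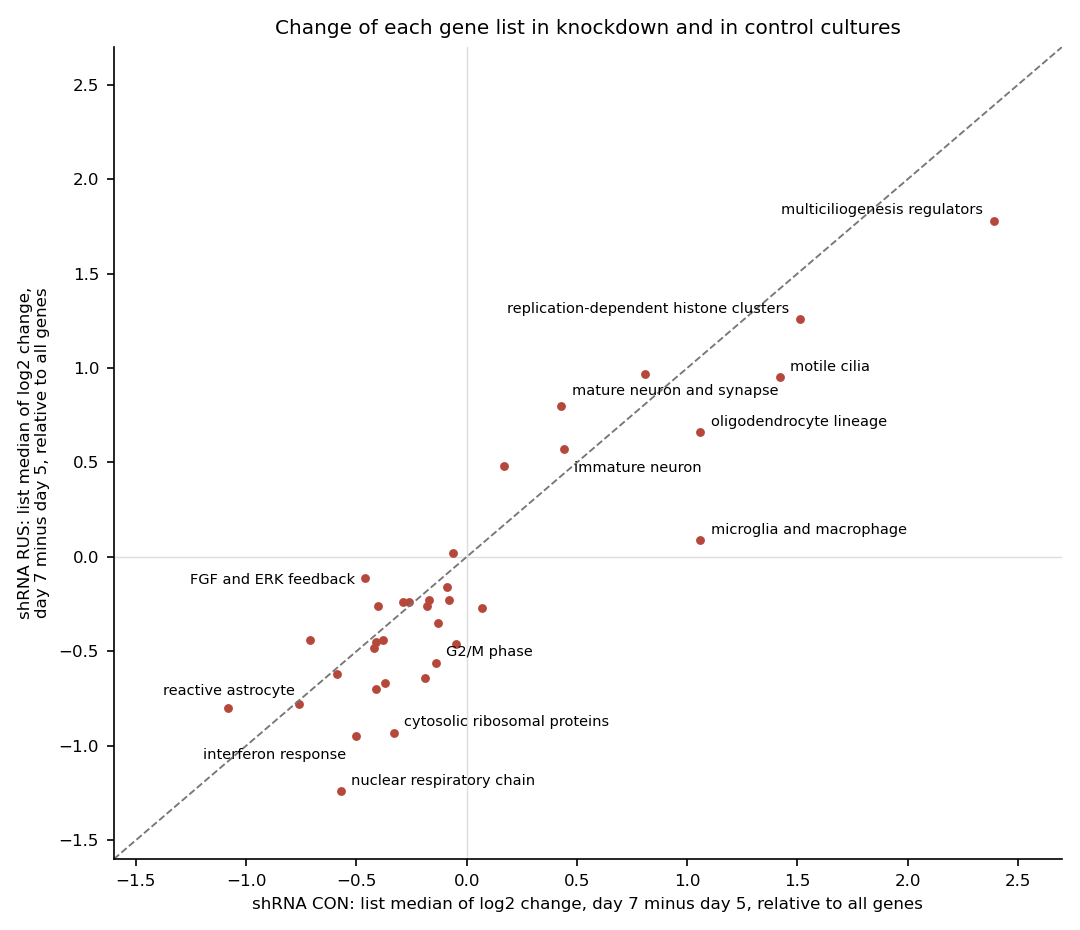
Median log2 change of each gene list between the days, relative to all genes, in the knock-down (vertical axis) and in the control cultures (horizontal axis), with a dashed line of equal change. Ribosomal, respiratory chain, G2/M, microglia and motile cilia lists lie below the line, and the mature neuron list lies above it.

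The change over the same days was then set beside that in the shRNA CON cultures, with which it shares no library. In the fit over all 16 libraries 14452 genes changed in the knock-down and 11527 in the controls. Of these, 8797 changed in the same direction in both, which is 60.9% of the knock-down calls and 76.3% of the control calls, and 478 changed in opposite directions. Over the 15899 genes averaging 1 TPM or more, the changes had a correlation of 0.74 across genes, which are not independent replicates and share the day and the library scaling. Their SD was 0.85 in the knock-down and 0.72 in the controls, so the spread of changes was wider with the hairpin against RUS. The difference of the changes was called positive in 3626 genes (15.2%) and negative in 3464 (14.6%), out of 23789 tested.

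Many genes with the largest differences were again listed at 0 in part of the libraries. Of the 5 largest positive differences 4 had a day 5 knock-down library at 0, and of the 5 largest negative ones 4 had a day 7 library at 0. Npvf, a neuropeptide precursor, was above 0 in all 8 knock-down libraries. It read 2.31, 2.55, 2.29 and 2.53 scaled TPM on day 5 and 1.20, 1.45, 0.971 and 1.25 on day 7. Its log2 change was -0.95 in the knock-down and 2.55 in the controls, a difference of -3.49 (limma adjusted p = 2.37e-08). Ripply1 rose by 3.85 against 2.18 (adjusted p of the difference 0.000946).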

How the data were processed

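RNA was measured in 16 libraries, 8 of them from shRNA RUS cultures. The authors aligned reads to mouse mm10 (GRCm38, Ensembl release 99 annotation) with STAR, counted with RSEM and deposited TPM, so the values are scaled by length and by each library's sum. Depth is unknown, since TPM keeps no read number, and no interval from counts can be given. The deposited tables also hold the authors' DESeq2 comparisons (fold changes and p-values), which were not used. The day 7 and day 5 tables were joined by symbol and position, and 106 of 55471 lines whose symbols did not match were left out.

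TPM was divided by median-ratio factors over genes at 1 TPM or more in all 8 libraries. Genes averaging 0.1 TPM or more were tested as log2(scaled TPM + 0.1) with limma 3.58.1 (R 4.3.3, empirical Bayes with trend, two-sided, Benjamini-Hochberg adjusted p below 0.05) over the 8 libraries. Fold changes on this scale understate the change of low genes. The difference from the controls was an interaction term over 16 libraries. RUS was tested by an exact permutation test. Summaries used Python 3.11.15, numpy 2.4.6, pandas 2.3.3 and matplotlib 3.10.9. The fit was checked on simulated data.

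The libraries and the 34 gene lists were chosen with earlier results of these data known, and 3 lists were added after values had been seen. Named genes were the 12 largest increases and decreases among those averaging 1 TPM or more, the 5 largest differences from the controls in each direction, the 5 largest gains and losses of TPM, RUS and its neighbours, and set members and the extremes of each list. Further list members were named after their values had been seen. A few list members are not reported here. Promoters came from RefSeq (GRCm38.p6) and gene lengths and coordinates from GENCODE vM21. The labels do not say that replicate numbers pair the samples, so the main fit did not pair them. Alternatives were other pseudocounts, filters, scalings and variance settings, a replicate block, a fold limit and leaving out each library.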

Additional observations from a re-analysis of the deposited data

Results flagged for a closer look

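A library far from the other 3 of its group was looked for in 400 groups of 4 knock-down libraries, with Dixon's gap test at its 95% critical value. Chance flags about 1 in 20 groups, and 24 groups were picked out. In day 5 library 1 of the knock-down these were Eomes (0.633 scaled TPM), Col1a2 (8.12 scaled TPM), Hk2 (7.69 scaled TPM) and Cxcl10 (42.5 scaled TPM). In day 5 library 2 of the knock-down this was Cdc20b (0.638 scaled TPM). In day 5 library 3 of the knock-down these were Bcas1 (2.10 scaled TPM), Mbp (5.45 scaled TPM), Ccne1 (10.99 scaled TPM) and mt-Co2 (664 scaled TPM). In day 5 library 4 of the knock-down these were Myb (2.38 scaled TPM), Map1b (54.6 scaled TPM), S100b (3.82 scaled TPM), Olig2 (29.9 scaled TPM), Fdps (97.6 scaled TPM), Gapdh (1682 scaled TPM) and Lamp1 (1025 scaled TPM). In day 7 library 1 of the knock-down these were Bbc3 (29.0 scaled TPM) and Fth1 (3804 scaled TPM). In day 7 library 3 of the knock-down these were Gfap (834 scaled TPM), Aldh1l1 (79.0 scaled TPM) and Ube2c (29.1 scaled TPM). In day 7 library 4 of the knock-down these were Mki67 (16.8 scaled TPM), Mdm2 (91.2 scaled TPM) and Creld2 (32.6 scaled TPM).

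The change between the days differed between knock-down and control cultures, by the interaction term in limma, in 3626 genes upwards and in 3464 downwards. The named genes among them are given by the knock-down change minus the control change on the log2 scale. Of the 10 genes with the largest fitted differences, 6 were listed at 0 in all 4 libraries of a group and get no value here. These were Mir29c, n-R5s29, Gm25390 and Gm17122 upwards and Gm49450 and Gm25600 downwards. The others were Gm14822 at 4.63, a line of the repeated symbol Ccl21b at -5.90, Gm50263 at -5.54 and Npvf at -3.49. Of these 4, all but Npvf were listed at 0 in 3 libraries of a group, so their values depend on the pseudocount. At the RUS locus the differences were 0.54 for Slitrk3 and 0.97 for Bche. Cilia genes gave -0.65 for Deup1, -0.93 for Rsph1 and -1.31 for Tmem212. Synaptic genes gave 0.65 for Snap25 and 0.88 for Grin2b, Serpina3n gave 0.43 and Cx3cr1 gave -0.71. Values of -1.05 for Ccnb2, -0.63 for Rpl36a, -1.47 for Cox6b2 and -0.65 for Gapdh were found for the cell cycle, ribosomal, respiratory and glycolytic genes. Fos gave 0.89, Rnase1 3.14, Glycam1 1.14, Igfbp2 -1.74 and Cd34 -2.10.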

How the results depend on the processing

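With TPM as deposited and with TPM summed again without mitochondrial and the 10 highest genes, the genes lower on day 7 in the knock-down became 3292 and 3097 (5711 in the main fit), those higher became 11280 and 11608 (7708), the positive differences from the controls 5700 and 6182 (3626) and the negative ones 2053 and 1837 (3464). At a fold change of at least 1.5 there were 3328 lower genes, 1677 positive and 1487 negative differences. The cause was not tested, apart from the fold limit, which calls fewer genes by construction. Leaving out each library in turn gave 7070 to 7873 higher and 5309 to 5934 lower genes, 3075 to 4392 positive and 3063 to 3900 negative differences, the highest of each without day 5 knock-down library 4. The mean difference of RUS ranged from 0.0175 to 0.197 TPM. Stmn1 reversed after quantile normalization (0.28) and with TPM summed again (0.02), Cdkn1a with TPM as deposited (0.06), after quantile normalization (0.21) and with TPM summed again (0.09), Rpl7 after quantile normalization (0.06), and Rpl10 after quantile normalization (0.30) and with TPM summed again (0.03), all on the log2 scale. For single genes 3744 of 3889 values kept their direction and side of the threshold, 76 lost the call, 61 gained it and 8 reversed, and 154 of 195 genes kept both throughout. The list median kept its sign in 30 of 37 lists under every setting run. It did not in the p53, neural stem cell, astrocyte, microglia, unfolded protein response, lysosome and mitochondrial genome lists, where it reached 0.11, 0.13, 0.24, 0, 0.09, 0.14 and -0.06.

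A replicate block gave 7389 higher and 5538 lower genes, 3365 positive and 3257 negative differences. The labels do not say whether samples with the same number belong together. The deviations of such samples from their group means correlated at 0.021, 0.009, 0.026 and 0.002, which cannot show whether they were paired. TPM gives no read number, so depth and counting error are unknown, and low or zero values such as those of RUS cannot be told from missed estimates.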
